A study of Mus musculus with 8 samples.

Results

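Granulocytes, the white blood cells that carry pre-formed granules of antimicrobial protein, switch on the genes of those proteins in a fixed order as they mature. The genes described here are 9 members of that programme among the 32285 genes listed in single-nucleus RNA data from 8 mouse livers. Of the 9, 4 encode primary granule proteins (Mpo, Elane, Prtn3 and Ctsg), 3 encode secondary granule proteins (Camp, Ngp and Ltf) and 2 encode proteins of mature cells (S100a8 and S100a9). The genes were chosen by name, with their counts in these libraries already known, so their levels by library are given as a description, with no test.

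All 8 mice were male DIAMOND mice, a 129A1/SvIm and C57BL/6J cross that develops fatty liver disease, and liver cancer (hepatocellular carcinoma, HCC), when fed a Western diet (WD) rich in fat together with sugared water. The WD tumour group (n = 3 mice) stayed on this diet for 48 weeks and developed HCC. The RD tumour group (n = 2 mice) and the RD no tumour group (n = 3 mice) received it for 36 weeks and were then returned to standard chow. RD stands here for reversed diet; the former group developed HCC, and no HCC was detected in the latter. Feeding began at 2 months of age by the series text, yet the labels put the end of the study at 48 weeks of age, and for the WD tumour mice these statements disagree. No group ate standard chow throughout. Nuclei of snap-frozen liver, unsorted by cell type, were profiled with 1 library per mouse, and the labels do not say whether the piece of liver held tumour.

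In textbook haematopoiesis, granulocytes are made in the bone marrow. Promyelocytes, early dividing precursors, transcribe the primary granule genes: myeloperoxidase (Mpo), which makes hypochlorous acid, and the serine proteases neutrophil elastase (Elane), proteinase 3 (Prtn3) and cathepsin G (Ctsg). These transcripts are then shut off, and myelocytes and metamyelocytes transcribe the secondary granule genes: the antimicrobial cathelicidin (Camp), neutrophilic granule protein (Ngp) and the iron-binding lactoferrin (Ltf). S100a8 and S100a9, the subunits of the calcium-binding protein calprotectin, are abundant in mature neutrophils and are also transcribed by monocytes. An adult liver holds circulating neutrophils, while primary granule transcripts are a mark of immature cells.

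Several members share a chromosome (positions from GRCm38, GENCODE M21). Prtn3 (chromosome 10, 79874476 to 79883174, plus strand) and Elane (79886247 to 79888215, plus strand) are 3072 bases apart. S100a8 (chromosome 3, 90668978 to 90670035, plus strand) and S100a9 (90692632 to 90695721, minus strand) are 22596 bases apart. Camp (109847379 to 109849617, minus strand), Ngp (110419747 to 110423012, plus strand) and Ltf (111019271 to 111042767, plus strand) lie farther apart on chromosome 9, with 570129 and 596258 bases between consecutive members. Mpo (chromosome 11, 87793581 to 87804413, plus strand) and Ctsg (chromosome 14, 56099881 to 56102574, minus strand) are each the only member on their chromosome. Mpo overlaps Gm11505 and Prtn3 overlaps Plppr3, both on the opposite strand, and whether the authors' counting used strand is not given in the sources used here, so these counts carry that uncertainty.

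The DNA before the start of the 4 primary granule genes is shown because these genes were high in the same libraries. In RD no tumour 1 they were also high in the same cluster of nuclei, as described further on. The sequences are from RefSeq (GRCm38.p6), read 5′ to 3′ on the gene's strand, and are the part of the 250 bases before the RefSeq start that no GENCODE exon covers. Capitals mark GAGGAA, the core of sites bound by PU.1, a transcription factor of myeloid cells.
Mpo promoter: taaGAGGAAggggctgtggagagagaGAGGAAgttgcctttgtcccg
Elane promoter: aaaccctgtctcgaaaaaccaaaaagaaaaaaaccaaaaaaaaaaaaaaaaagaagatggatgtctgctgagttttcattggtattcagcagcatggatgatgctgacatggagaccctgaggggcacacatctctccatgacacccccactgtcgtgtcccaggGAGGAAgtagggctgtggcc
Prtn3 promoter: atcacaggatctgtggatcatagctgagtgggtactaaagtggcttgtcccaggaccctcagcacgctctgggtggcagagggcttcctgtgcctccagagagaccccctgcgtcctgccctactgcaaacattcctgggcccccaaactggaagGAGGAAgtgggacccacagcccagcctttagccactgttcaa
Ctsg promoter: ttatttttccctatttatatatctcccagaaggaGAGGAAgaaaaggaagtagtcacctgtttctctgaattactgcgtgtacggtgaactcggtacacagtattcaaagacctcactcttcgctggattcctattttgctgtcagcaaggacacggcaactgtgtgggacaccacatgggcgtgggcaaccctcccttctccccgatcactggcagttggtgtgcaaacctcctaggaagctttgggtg
The stretches are chr11:87793534-87793580, chr10:79886062-79886246, chr10:79879417-79879613 and chr14:56102575-56102824, the last on the minus strand; that of Prtn3 lies within the longer gene span that GENCODE gives. In the 250 bases before the RefSeq start, searched on both strands, Mpo held 2 copies of GAGGAA and Elane, Prtn3 and Ctsg held 1 each, while 23.3% of 32851 RefSeq promoters of that length held at least 1. A C/EBP motif, TTGCNNAA, was found in 9.56% of those promoters and in none of these 4. Among the other members, it was matched in Ngp (2 matches), Ltf (1) and S100a9 (1), and GAGGAA or its complement in Ltf (1) and S100a8 (2); Camp held neither. No match of one motif overlapped a match of the other in these 9 genes, and a match is a string of letters and not a measured binding site.

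Between 6048 and 20000 nuclei per library passed a minimum of 300 detected genes, with 17948627 to 34363108 UMIs (unique molecular identifiers, each counting 1 captured RNA molecule) in total and a median of 1120 to 2656 UMIs per nucleus. The liver marker Alb, the albumin gene of hepatocytes, had a UMI in 99.7 to 100% of nuclei of each library. Hepatocyte nuclei transcribe Alb themselves, while in other nuclei such UMIs can come from RNA outside the nucleus. How much of the RNA came from outside was not tested. Library RD tumour 1 stood apart: it held exactly 20000 barcodes, and its nuclei fell into 12 clusters while the other libraries gave 17 to 29. All of its barcodes passed the gene minimum, as did all 6457 of WD tumour 1. No pair of libraries shared more than 0.676% of the barcodes of the smaller one. Levels are given as CPM, the UMIs of a gene per 1000000 UMIs of the library, from 3′-end counts that are not scaled by gene length. In such library sums, fewer granulocytes and less RNA per granulocyte cannot be told apart.

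The primary granule genes were highest in a mouse without tumour. Summed over Mpo, Elane, Prtn3 and Ctsg, the level was 126, 2.60 and 1.49 CPM in RD no tumour 1, 2 and 3, 32.4 and 4.15 CPM in RD tumour 1 and 2, and 6.07, 34.2 and 1.67 CPM in WD tumour 1, 2 and 3. All 3 groups overlapped, and within the RD no tumour group 1 mouse stood far above the other 2. The group means were 43.3 ± 71.4 CPM in RD no tumour (SD, n = 3), 18.3 ± 19.99 CPM in RD tumour (SD, n = 2) and 14.0 ± 17.6 CPM in WD tumour (SD, n = 3). Without RD no tumour 1 the mean of its group was 2.05 CPM, below those of both tumour groups, without WD tumour 2 that group's mean was 3.87 CPM, and without RD tumour 1 the remaining RD tumour mouse stood at 4.15 CPM. Leaving out RD tumour 2 leaves RD tumour 1 as the only mouse of its group, here and for the later stages.

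Each of the 4 primary granule genes had its highest level in RD no tumour 1. Mpo, the myeloperoxidase gene, had 720, 4 and 2 UMIs in mice 1, 2 and 3 of RD no tumour, 142 and 17 in RD tumour mice 1 and 2, and 21, 93 and 9 in mice 1, 2 and 3 of WD tumour. Elane had 633, 1 and 5, then 251 and 16, then 22, 82 and 2 UMIs in the same order of mice. Ctsg had 773, 9 and 2, then 119 and 16, then 13, 75 and 8 UMIs. By UMIs, in all of these, RD no tumour 1 was followed by RD tumour 1 and WD tumour 2, with the remaining 5 mice at 22 UMIs or fewer. Prtn3 had 1539, 45 and 39, then 602 and 64, then 53, 519 and 22 UMIs, so WD tumour 2 lay near RD tumour 1 in counts and above it in CPM (23.1 and 17.5). In RD no tumour 2 and 3 its 45 and 39 UMIs lay in 44 and 39 nuclei, so it was spread over single molecules there.

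The secondary granule genes were highest in a mouse with tumour after diet reversal. Their summed level was 265, 10.6 and 3.91 CPM in RD no tumour, 703 and 19.8 CPM in RD tumour, and 17.6, 45.7 and 4.76 CPM in WD tumour. The groups overlapped again: RD tumour 1 was highest, RD no tumour 1 next and WD tumour 2 after them, and the other 5 mice lay at 19.8 CPM or less. Ngp had 3299, 75 and 37 UMIs in RD no tumour, 13385 and 178 UMIs in RD tumour and 119, 357 and 27 in WD tumour. Camp had 2437, 111 and 71, then 6723 and 185, then 109, 479 and 71 UMIs, and Ltf 1983, 54 and 18, then 4060 and 175, then 87, 193 and 19 UMIs. All 3 genes put the first 3 mice in the same order. The means were 93.1 ± 149 CPM in RD no tumour (SD, n = 3), 362 ± 483 CPM in RD tumour (SD, n = 2) and 22.7 ± 20.96 CPM in WD tumour (SD, n = 3). They were 7.25 CPM without RD no tumour 1, 19.8 CPM without RD tumour 1 and 11.2 CPM without WD tumour 2.

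The calprotectin genes followed the secondary granule genes. Together S100a8 and S100a9 stood at 476, 22.2 and 12.9 CPM in RD no tumour, 2005 and 51.7 CPM in RD tumour, and 69.5, 112 and 15.2 CPM in WD tumour. S100a8 had 5050, 189 and 149 UMIs in RD no tumour, 34957 and 489 UMIs in RD tumour and 511, 1046 and 145 in WD tumour. S100a9 had 8836, 314 and 266, then 33928 and 919, then 737, 1485 and 229 UMIs. Of the 8 libraries, RD tumour 1 was the only one in which S100a8 UMIs outnumbered those of S100a9, a ratio that compares libraries and not the levels of these genes. The means were 170 ± 265 CPM in RD no tumour (SD, n = 3), 1028 ± 1381 CPM in RD tumour (SD, n = 2) and 65.7 ± 48.7 CPM in WD tumour (SD, n = 3), and the groups overlapped. Without RD no tumour 1 its group mean was 17.5 CPM, without RD tumour 1 the remaining mouse stood at 51.7 CPM, and without WD tumour 2 that group's mean was 42.4 CPM.

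**Figure D1:**
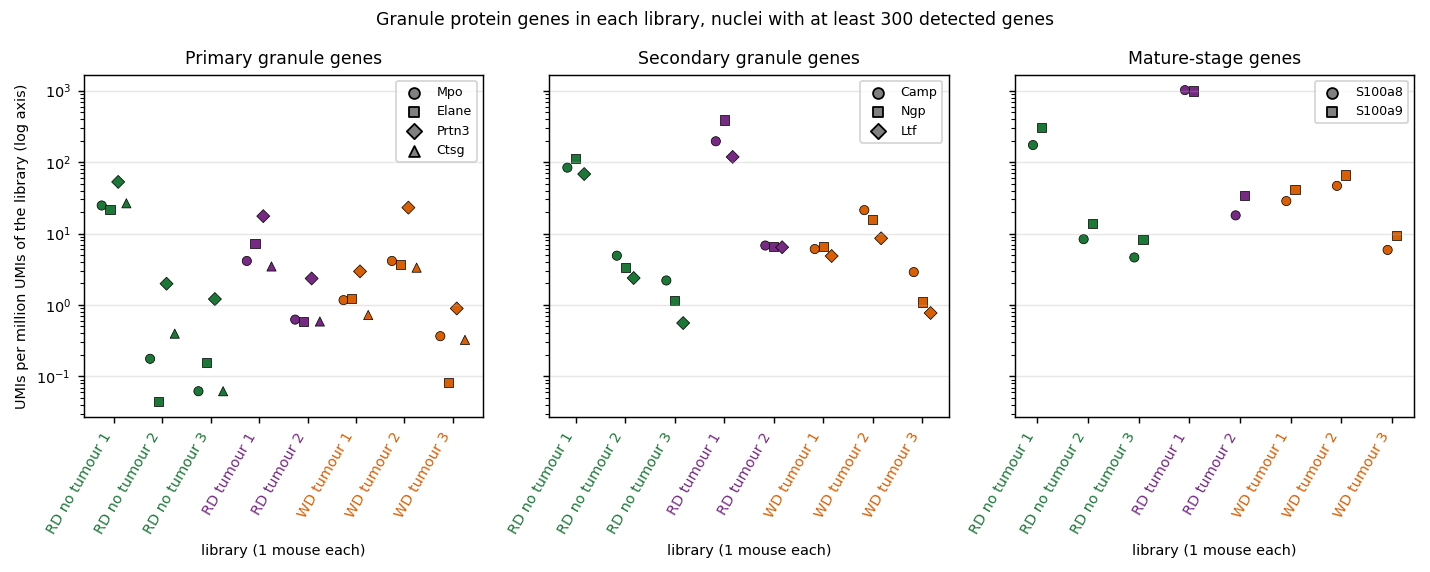
Level of each of the 9 genes in each library, in CPM of the library on a log axis; 1 point is 1 gene in 1 mouse, and colour marks the group. RD no tumour 1, RD tumour 1 and WD tumour 2 are the 3 highest libraries for every gene, with the primary genes highest in RD no tumour 1 and the other 5 genes highest in RD tumour 1.

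The balance between the stages differed between the 3 libraries that held most of the transcripts. The ratio of mature-stage to primary UMIs was 61.8 in RD tumour 1, 3.79 in RD no tumour 1 and 3.29 in WD tumour 2, and 8.53 to 12.5 in the other 5 libraries. The ratio of secondary to primary UMIs was 21.7 in RD tumour 1, 2.11 in RD no tumour 1 and 1.34 in WD tumour 2. RD tumour 1 was thus rich in late-stage transcripts relative to early ones, while RD no tumour 1 and WD tumour 2 held relatively more of the early ones. Mature-stage and secondary UMIs kept a narrower ratio, from 1.80 in RD no tumour 1 to 3.96 in WD tumour 1.

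Transcripts of these genes were found in many nuclei of the 3 libraries. A UMI of at least 1 primary granule gene was present in 21.3% of nuclei of RD no tumour 1 (95% exact binomial interval 20.5 to 22.1%), 9.38% of WD tumour 2 (8.71 to 10.1%) and 5.12% of RD tumour 1 (4.82 to 5.43%), and in 0.316 to 1.502% of the other 5. For S100a8 or S100a9 the share was 52.7% in RD no tumour 1, 91.6% in RD tumour 1 and 26.4% in WD tumour 2, and 2.77 to 15.2% in the others. These intervals cover counting error only. Much of this detection rested on single UMIs. At least 2 primary UMIs were present in 4.14% of nuclei of RD no tumour 1, 0.82% of WD tumour 2 and 0.31% of RD tumour 1. For the mature-stage genes that share was 23.3% in RD no tumour 1, 5.19% in WD tumour 2 and 73.6% in RD tumour 1. When each nucleus was thinned to 500 UMIs, with no nucleus too shallow to enter, the primary share was 7.48% in RD no tumour 1, 2.87% in WD tumour 2 and 1.69% in RD tumour 1. The thinned share for S100a8 or S100a9 was 22.9% in RD no tumour 1, 63.1% in RD tumour 1 and 9.55% in WD tumour 2.

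Such wide detection included nuclei of a cell type that does not make granule proteins. In endothelial-like nuclei, named from vessel-lining markers such as Stab2 and Ptprb, the primary share was 17.7% in RD no tumour 1 (928 nuclei, median 1502.5 UMIs), 8.12% in WD tumour 2 (628 nuclei, 2326 UMIs) and 3.39% in RD tumour 1 (2447 nuclei, 1433 UMIs), against library medians of 1908, 1823.5 and 1299 UMIs. For the mature-stage genes it was 48.9%, 26.3% and 90.8% in the same order. Thinned to 500 UMIs, endothelial-like nuclei had primary shares of 5.60%, 1.59% and 1.10% in that order. Over all nuclei these were 7.48%, 2.87% and 1.69%. The thinned mature-stage shares were 21.4%, 6.21% and 57.0%, against 22.9%, 9.55% and 63.1% over all nuclei. Endothelial-like nuclei thus lay below all nuclei but held these transcripts widely. A UMI in a nucleus is therefore not read here as the mark of a granulocyte. How the UMIs came to be spread over these nuclei was not tested. Only clusters above the endothelial-like level are described as carrying the genes.

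**Figure D2:**
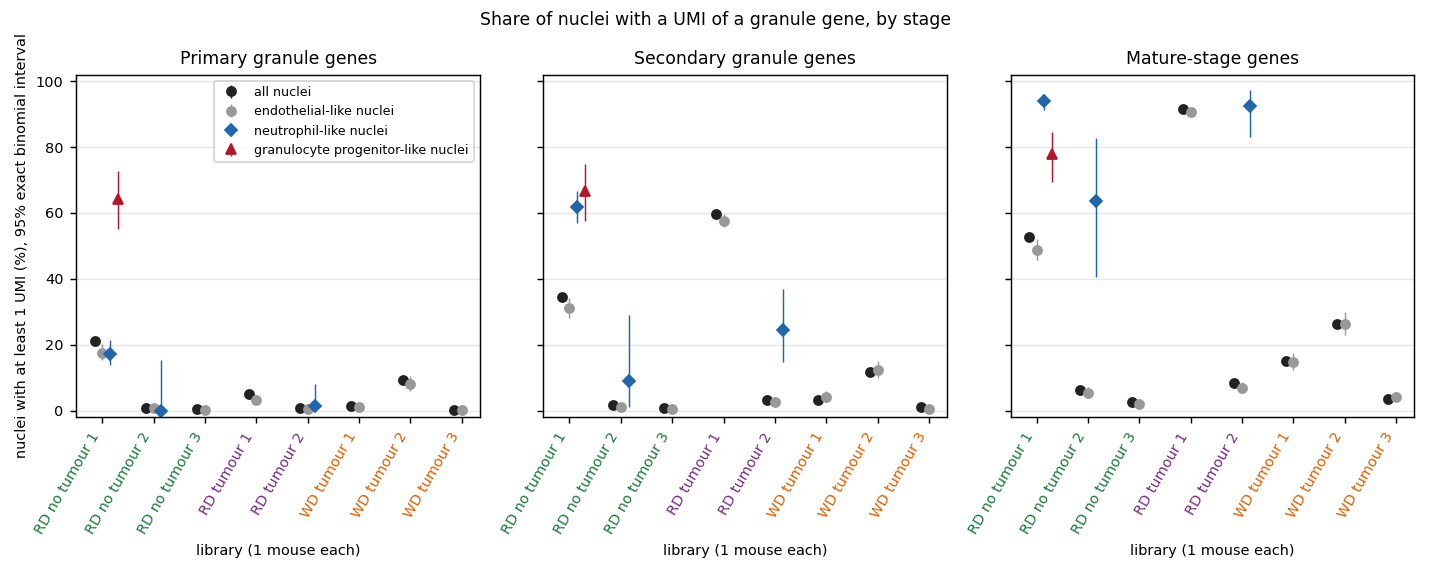
Share of nuclei with at least 1 UMI of a gene of each stage, in percent with the 95% exact binomial interval, over all nuclei and over the nuclei named endothelial-like, neutrophil-like or granulocyte progenitor-like in each library. In RD no tumour 1 the primary share is 17.7% in endothelial-like nuclei, 21.3% over all nuclei and 64.3% in granulocyte progenitor-like nuclei.

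Clusters made within each mouse without the 9 genes placed granulocyte nuclei in 3 mice. RD no tumour 1 held a neutrophil-like cluster of 404 nuclei (median 830 UMIs) and a granulocyte progenitor-like cluster of 126 nuclei (median 1824.5 UMIs). RD no tumour 2 held 22 neutrophil-like nuclei (median 1254 UMIs) and RD tumour 2 held 65 (median 696 UMIs). The other 5 libraries had no cluster named for granulocytes. In every library most nuclei stayed unnamed, 17493 of 20000 in RD tumour 1, so a missing name does not show that granulocytes were absent. A cluster of 81 nuclei in RD no tumour 3, led by Csf3r, the receptor of the granulocyte growth factor G-CSF, had the highest secondary and mature-stage levels of that library, 153 and 692 CPM of the cluster, and stayed unnamed.

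The neutrophil-like clusters stood out more for the late genes than for the early ones. Their name rests in part on other late genes of the programme, such as Mmp8, Ly6g and Retnlg. This contrast is therefore partly set by the naming and is given as a description. In RD no tumour 1 the cluster stood at 3913 CPM for the secondary and 6639 CPM for the mature-stage genes, against 261 and 426 CPM in its endothelial-like nuclei. For the primary genes it stood at 206 CPM against 96.5 CPM, with UMIs in 17.3% of nuclei against 17.7%. Those shares were 9.65% and 5.60% after thinning to 500 UMIs, so the order of the unthinned shares is not read. In RD tumour 2 the cluster stood at 8.88, 1190 and 2574 CPM for the primary, secondary and mature-stage genes, and its single primary UMI was of Prtn3. In RD no tumour 2 it stood at 1071 and 2290 CPM for the later stages, with primary genes in 0 of 22 nuclei, which allows a share of up to 13.6%. Of those 22 nuclei, 2 held all 29 secondary UMIs.

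The granulocyte progenitor-like cluster of RD no tumour 1, taken as a whole, carried genes of all stages. Whether single nuclei of this cluster held several stages was not counted. It stood at 2531 CPM for the primary genes, 2258 CPM for the secondary and 3117 CPM for the mature-stage genes. Mpo stood at 828 CPM there, 39.6 CPM in the neutrophil-like and 14.2 CPM in the endothelial-like nuclei. Elane stood at 492, 23.7 and 13.6 CPM in the same classes, Prtn3 at 710, 100.3 and 43.0 CPM, and Ctsg at 502, 42.2 and 25.7 CPM. All 4 were thus far higher in the progenitor-like nuclei than in either other class. The name of that class rests in part on other early genes, such as Ms4a3 and Prss57, so its high primary level is not independent of the naming. Ltf, in contrast, stood at 648 CPM in the progenitor-like and 1694 CPM in the neutrophil-like nuclei, and S100a9 at 2244 and 4834 CPM, while Camp, at 551 and 604 CPM, was nearly level. The cluster held 33.2% of the library's Mpo UMIs but 13.3% of its Prtn3 UMIs, and 19.9% of primary UMIs in all. Outside both granulocyte-named clusters lay 77.9% of the primary, 72.3% of the secondary and 75.4% of the mature-stage UMIs of that library.

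**Figure D3:**
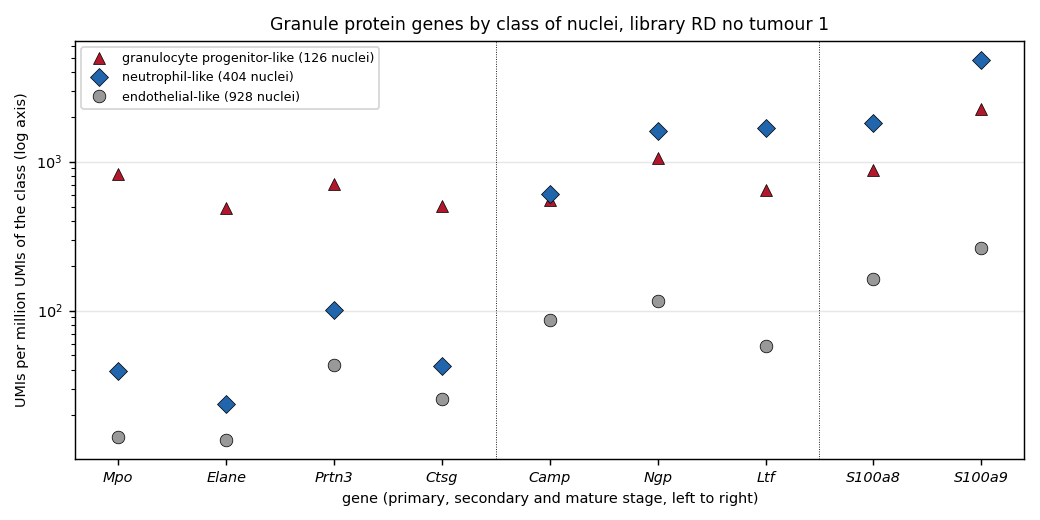
Level of the 9 genes in 3 classes of nuclei of library RD no tumour 1, in CPM of the class on a log axis; dotted lines separate the stages. The 4 primary genes stand at 492 to 828 in granulocyte progenitor-like nuclei and at 23.7 to 100.3 in neutrophil-like nuclei.

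A further cluster of RD no tumour 1 combined early and mature-stage genes. It held 269 nuclei, was led by F13a1, Vcan and Ccr2, genes known from classical monocytes, and stayed unnamed. It stood at 450 CPM for the primary, 241 CPM for the secondary and 1115 CPM for the mature-stage genes, so its secondary level was no higher than the 261 CPM of the endothelial-like nuclei. In WD tumour 2 the highest cluster for all 3 stages was 1 of 94 nuclei, led by F13a1 and also unnamed, with 174, 271 and 581 CPM. Endothelial-like nuclei of that library stood at 28.1, 48.2 and 113 CPM. The 94 nuclei held 4.16% of the library's primary UMIs.

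In RD tumour 1 no cluster was free of the genes of any stage, as in RD no tumour 1 (29 of 29 clusters) and WD tumour 2 (22 of 22 clusters). Across its 12 clusters the mature-stage level ran from 1169 to 4722 CPM, the secondary level from 399 to 1726 CPM and the primary level from 19.5 to 77.2 CPM. The highest cluster thus reached 2.32 times the median cluster for the mature-stage genes. The same ratio was 2.94, 5.04 and 7.78 in WD tumour 1, 2 and 3, 15.2, 77.4 and 47.4 in RD no tumour 1, 2 and 3, and 59.4 in RD tumour 2, so WD tumour 1 lay close to RD tumour 1. The ratio of mature-stage to secondary levels lay between 2.57 and 3.08 in 11 of the 12 clusters. The exception, a cluster of 413 nuclei with a ratio of 2.19, had 4 neutrophil markers above the threshold but missed the score needed for a name, and stood at 48.2, 1182 and 2586 CPM for the 3 stages. Its level for the mature-stage genes was below that of 3 other clusters. What spread these transcripts over all clusters of this library was not tested.

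**Figure D4:**
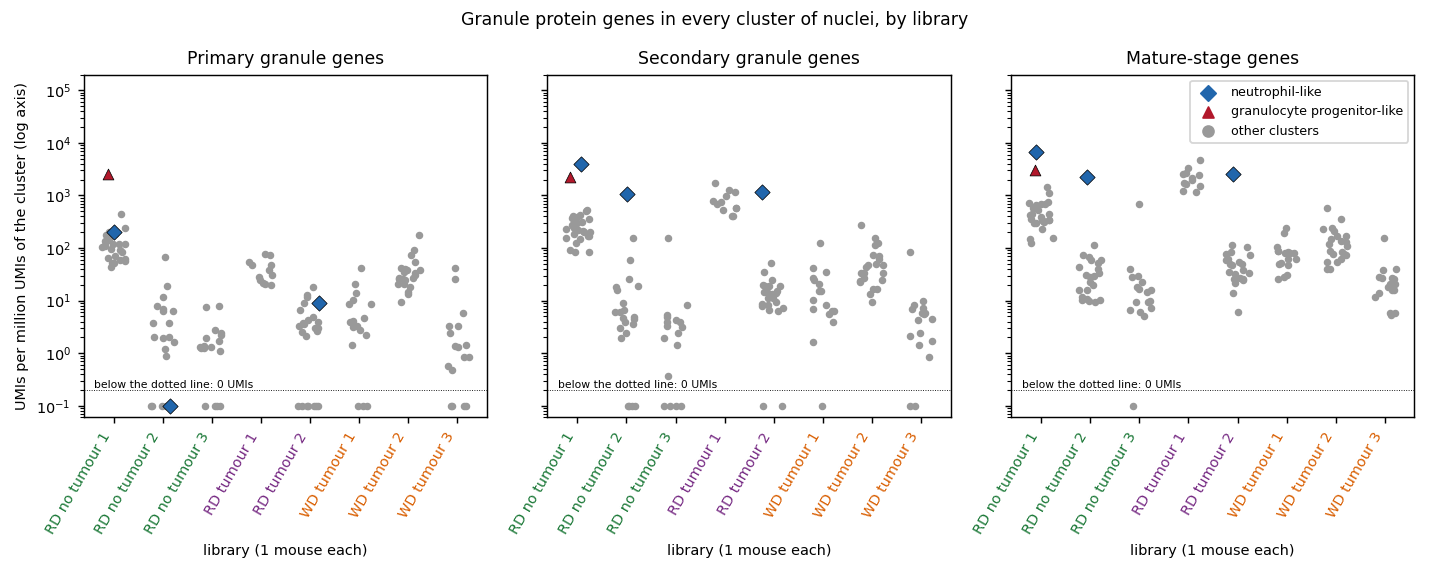
Level of each stage in every cluster of every library, in CPM of the cluster on a log axis; 1 point is 1 cluster, and clusters with 0 UMIs are drawn below the dotted line. The granulocyte progenitor-like cluster of RD no tumour 1 lies above all others for the primary genes, and the clusters of RD tumour 1 lie at 1169 or more for the mature-stage genes.

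Nuclei with UMIs of several primary granule genes were counted next. UMIs of different genes from RNA outside the nucleus can also meet in 1 nucleus, more often where detection is wide and the nucleus deep. How many of these nuclei arose in that way was not tested. UMIs of at least 2 of the 4 genes were present in 305 nuclei of RD no tumour 1, 1 of RD no tumour 2, 1 of RD no tumour 3, 33 of RD tumour 1, 4 of RD tumour 2, 6 of WD tumour 1, 21 of WD tumour 2 and 2 of WD tumour 3. The 305 nuclei were 2.97% of their library (95% exact binomial interval 2.65 to 3.32%). At least 3 of the genes were found in 108 nuclei of RD no tumour 1, 5 of RD tumour 1 and 5 of WD tumour 2. All 4 genes were found in 57 nuclei of RD no tumour 1, in 1 of WD tumour 2 and in no other library. In RD no tumour 1, Elane had a UMI in 21.8% of nuclei with Mpo and in 3.78% of those without, and Ctsg in 22.5% and 5.10%. Camp, by comparison, had a UMI in 21.5% of nuclei with Mpo and in 17.2% of those without. In RD tumour 1 Elane had a UMI in 2.90% of nuclei with Mpo (4 of 138 nuclei) and in 1.19% of those without. The same shares in WD tumour 2 were 8.57% (6 of 70 nuclei) and 1.00%, so a higher share beside Mpo was not particular to RD no tumour 1.

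The 305 nuclei of RD no tumour 1 were deeper than the rest, with a median of 2497 UMIs against 1883.5, and 39.3% of them also held a secondary granule UMI, against 34.5% of the other nuclei. Of the 9 listed myeloid transcription factor genes 7 were higher in them and 2 lower, with a sum of 1004 CPM against 723 CPM in the other nuclei. Cebpb, at 281 and 302 CPM, and Cebpd, at 79.6 and 89.4 CPM, were the lower ones. Myb, a transcription factor of immature blood cells, stood at 55.1 CPM in these nuclei and 2.63 CPM in the others of the library. Gfi1, a repressor needed to make neutrophils, stood at 14.0 and 0.794 CPM, and Ms4a3, a membrane protein of granulocyte-monocyte progenitors, at 59.3 and 5.02 CPM. Fcnb, the gene of ficolin B, stood at 47.5 and 5.67 CPM. Of the 20 genes with the highest ratio, the others with a name were Tctex1d1, Kcnk12, Nrg2, Tshr, Sele, Gria3, Rab44, Dgkb and Dnajc6, and 7 were gene models named with Gm. The ratio ran from 37.2 for Gm26577 down to 8.38 for Fcnb.

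Cell-cycle genes were also higher in these nuclei. All 8 genes of the cycling list had a higher level there, and their sum was 329 CPM against 98.0 CPM in the other nuclei, with Top2a, a topoisomerase of dividing cells, at 142 and 37.6 CPM. Mature neutrophil genes (12 genes) summed to 358 and 284 CPM and erythroid genes (8 genes), which mark red cell precursors, to 1939 and 2355 CPM. The basophil and mast cell genes summed to 8.37 and 3.07 CPM, with 4 of 5 higher in the 305 nuclei, from 12 UMIs there. In the 108 nuclei with 3 or more primary genes the cycling sum was 588 CPM. Cebpe, which drives the step to secondary granules, stood at 4.19 CPM in the 305 nuclei and 1.88 CPM in the others, from 6 and 52 UMIs. The ratio of the cycling sum was 0.912 in the 33 nuclei of RD tumour 1 and 1.77 in the 21 nuclei of WD tumour 2. In those libraries the leading genes were Hcst, Rnaseh2c and Tmsb10, and F630028O10Rik, Leng9 and Fam53b, at ratios of up to 4.57 and 4.27. Myb, Gfi1 and Ms4a3 had too few UMIs there for that ranking, which needs 20. They had 1 UMI each in the 33 nuclei of RD tumour 1, and 5, 2 and 4 UMIs in the 21 nuclei of WD tumour 2. The WD tumour 2 nuclei had Myb at 25.4 CPM and the rest of the library at 0.852 CPM, from those few molecules.

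In the whole-library comparison of the groups, edgeR's quasi-likelihood test on UMI sums per mouse tested 19087 genes and called none at a Benjamini-Hochberg adjusted p under 0.05. For WD tumour versus RD no tumour 0 of 9 granule genes were called (0% of all genes tested were), for RD tumour versus RD no tumour 0 of 9 (0%), and for WD tumour versus RD tumour 0 of 9 (0%). Nothing is read from these counts for the members. Of all genes, 524, 1279 and 1443 had an unadjusted p under 0.05, and the 3 comparisons share groups. DESeq2 called 37, 76 and 123 genes, none of them a member. DESeq2 gave an adjusted p for 1 of the 9 members, Elane, in each comparison.

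The other 47 genes of the granulocyte programme, listed by role, were all tested and none was called in any comparison. Their median log2 fold change was -0.53 for WD tumour versus RD no tumour, 0.60 for RD tumour versus RD no tumour and -1.34 for WD tumour versus RD tumour, while the median of all genes was -0.01, 0.00 and -0.01. For WD tumour versus RD no tumour the largest differences were in Chil3 (chitinase-like 3), at -2.83 ± 1.87 (log2 fold change ± SE), Prss57, a primary granule serine protease, at -2.75 ± 1.99, Fcnb at -2.58 ± 1.95 and Cebpe at -2.58 ± 1.70, each with an edgeR adjusted p of 1.00. SE, here and below, is the absolute log2 fold change divided by the square root of the F value of the edgeR test, an approximation. Chil3 had 218, 4.85 and 1.89 CPM in RD no tumour and 3.62, 21.4 and 6.06 CPM in WD tumour, so the groups overlapped and 1 library was high. Without RD no tumour 1 the value for Chil3 was 1.52 and that for Fcnb 3.31. Cebpe had 58, 0 and 2 UMIs in RD no tumour, 25 and 5 UMIs in RD tumour, and 2, 5 and 0 in WD tumour.

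For RD tumour versus RD no tumour the largest differences were in genes of the mature neutrophil: Retnlg (2.63 ± 1.78), Il1r2, the decoy receptor of interleukin 1 (2.33 ± 1.51), and Stfa2l1, a stefin (2.30 ± 1.06), with the granule proteoglycan gene Srgn at 2.41 ± 1.09. Their edgeR adjusted p lay between 0.612 and 0.619. Retnlg had 56.2, 1.501 and 1.27 CPM in RD no tumour and 222 and 8.74 CPM in RD tumour. Without RD tumour 1 the values were negative for all 4, at -1.20 for Retnlg, -1.56 for Il1r2, -0.43 for Stfa2l1 and -0.66 for Srgn. For WD tumour versus RD tumour the largest were Retnlg (-4.87 ± 1.93), Stfa2l1 (-4.30 ± 1.21), the neutrophil surface genes Cd177 (-3.80 ± 1.73) and Ly6g (-3.57 ± 1.75), with an edgeR adjusted p of 0.590 for each. Without RD tumour 1 these values were -1.04 for Retnlg, -1.57 for Stfa2l1, -0.39 for Cd177 and -0.56 for Ly6g.

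Across the 8 libraries, the genes with the level most like that of the primary granule sum, by Pearson r of log2(CPM + 1) over 8 points among 17931 genes, were Sppl2a (0.987), Efcab11 (0.983), Cyb561 (0.981), Lrp8 (0.979) and Lzts1 (0.978). For the secondary sum they were Pglyrp1 (0.988), a peptidoglycan recognition protein of neutrophil granules, Traf3ip3 (0.987), Olfm4 (0.980), a marker of a neutrophil subset, Aph1c (0.980) and Map3k9 (0.980). For the mature-stage sum they were Gatm (0.983), Sema3a (0.978), Cxadr (0.977), Cd177 (0.977) and Ifitm6 (0.975). Points share a library with its depth and any RNA from outside the nuclei, and 3 high libraries carry most of the range. These values are therefore a description with no test.

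Genes of other blood lineages were measured beside the granule genes. The cycling list stood at 311 CPM in RD tumour 1, followed by WD tumour 2 with 176 CPM and RD no tumour 1 with 109 CPM, the same 3 libraries, and at 6.87 to 23.3 CPM in the other 5. The megakaryocyte list (5 genes of platelet precursors) stood at 39.6 CPM in RD no tumour 1, 28.4 CPM in RD tumour 1 and 27.1 CPM in WD tumour 2, and at 4.66 to 14.4 CPM elsewhere. The erythroid list was highest in WD tumour 2, at 10633 CPM, then in RD no tumour 1 at 2334 CPM and RD tumour 1 at 1889 CPM, with 360 to 1454 CPM in the rest. The basophil and mast cell list (1.91 to 3.57 CPM) and the list of B cells and lymphoid precursors (20.6 to 88.2 CPM) did not put these 3 libraries highest. Neutrophil markers (8 of 8 detected in each library) summed to 354 CPM in RD tumour 1, 191 CPM in RD no tumour 1, 62.3 CPM in WD tumour 2 and 17.7 to 54.6 CPM in the others. The part of these lineages in the levels of the granule genes was not tested.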

How the data were processed

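The authors deposited, for each of the 8 mice, raw UMI counts per gene and barcode from Chromium single cell 3′ libraries of liver nuclei. Cell Ranger 7.0.0 and the build mm10 are named in the submitters' processing notes; the counting of introns and strand and the calling of barcodes are not given in the sources used here. The members and all gene lists were chosen with earlier results of these data known.

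Of 80575 barcodes, 79446 with at least 300 detected genes were kept. Scrublet (scanpy 1.11.5) calls were kept and only removed as an alternative: its automatic threshold was used in RD no tumour 1 and 2, and the highest scores up to the expected share of doublets elsewhere. Nuclei were clustered within each mouse without the 9 genes (2000 variable genes, 30 principal components, 20 neighbours, Leiden resolution 1). A cluster was named from fixed markers with a mean log2 ratio of at least 1, at least 3 markers and a lead of at least 1; these thresholds were set after the cluster tables had been seen, so a difference from the study's own cell types may come from the rebuilt names.

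The mouse was the replicate. UMI counts summed per library entered 1 model of the 3 groups in edgeR 4.0.16 (TMM scaling, filterByExpr, the quasi-likelihood test and Benjamini-Hochberg adjustment), tested on simulated data first, with DESeq2 1.42.0 as an alternative. Total UMIs of 17948627 to 34363108 per library set the precision. Named beside the members were the 4 tested genes of the granulocyte list with the largest change per comparison, the 20 genes with the highest ratio in nuclei with 2 or more primary genes (at least 20 UMIs there), and the 5 genes most like each stage (at least 100 UMIs). Of 32285 gene IDs, 32158 were in GENCODE M21, used for positions, and all 9 members had a RefSeq promoter.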

Additional observations from a re-analysis of the deposited data

How the results depend on the processing

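Over every deposited barcode, at 500 detected genes and without doublet calls, the 3 stage sums kept within 1 SD of their group means. With 2 or 3 mice of very unequal level that SD is wide. Leaving out 1 mouse of 2 or 3 can never move a group mean by 1 SD, so the rule decides nothing there. The changes by mouse stand with the results. Nuclei with 3 or more primary genes numbered 108, 0, 1 in RD no tumour 1, 2 and 3, 5 and 2 in RD tumour 1 and 2, and 0, 5, 2 in WD tumour 1, 2 and 3; without doublet calls the nuclei with 2 or more numbered 240 in RD no tumour 1 and 0 in RD no tumour 2. The edgeR count of 0 genes became 11 for RD tumour versus RD no tumour without RD tumour 1, and without RD tumour 2 it became 4569 there and 4438 for WD tumour versus RD tumour, where the group is RD tumour 1 alone and is assumed to vary like the others; with 23% and 22.3% of all genes called there, 0 of 9 members and 4 of the 47 other granulocyte genes (Srgn, Mxd1, Hdc and Stfa2l1) were. Leaving out each mouse gave 0 to 4569 and 0 to 4438 genes in these comparisons and 0 throughout for WD tumour versus RD no tumour. DESeq2 called 37, 76 and 123 genes (WD tumour versus RD no tumour, RD tumour versus RD no tumour, WD tumour versus RD tumour); the cause was not tested. Whether replicate numbers pair the mice could not be decided. Deviations from the group mean correlated at -0.53 to 0.44 between same-numbered libraries and at -0.53 to 0.65 between the others. The 2 RD tumour mice give mirrored values by construction. With the number as a block, 0 genes were called in each comparison, and Chil3 and Fcnb turned to 0.72 and 0.54 for WD tumour versus RD no tumour. Over the mice left out, Chil3 ranged from -3.88 to 1.52 and Fcnb from -3.87 to 3.31 in that comparison, and Retnlg from -1.20 to 6.32, Srgn from -0.66 to 3.31, Il1r2 from -1.56 to 4.63 and Stfa2l1 from -0.43 to 3.16 for RD tumour versus RD no tumour. With no filter, every barcode or no doublet calls, 0 genes were called in all 3 comparisons.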
